A study of Mus musculus with 17 samples.

Results

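The 6 genes Rnase1, Agxt2l1, Prelp, Cmya5, Bcar3 and 1700019G17Rik, of 23284 genes counted, stood at the head of the 4-week comparison between Tsc1-deleted and control mouse cortex. They were chosen by those measured values, the 4-week fold changes and p-values, so their 4-week values are a description and carry no test. The rule of choice did not use the 15-week libraries, in which each gene was tested. The 15-week result of Rnase1 was nevertheless known when the genes were chosen. RNA came from upper somatosensory and parietal cortex, and all mice had a Bl6/129S mixed background. In Tsc1CKO mice (mGfapCre+:Tsc1CKO) Tsc1 is deleted wherever Cre, driven by the mouse Gfap promoter, has been active. Controls were littermates that carried Cre too (mGFAPCre+ littermate control). There were 5 Tsc1CKO and 5 control libraries at 4 weeks of age, and 4 Tsc1CKO and 3 control libraries at 15 weeks. The labels name neither the exons removed nor the cells in which this Cre line acts, and do not say whether animals were pooled. If libraries of a group came from 1 animal or pool, the p-values below measure technical spread only.

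The Tsc1 protein, hamartin, forms a complex with the Tsc2 protein that holds the mTORC1 kinase, a driver of cell growth, in check. The Gfap promoter is used to reach astrocytes, the cells that take up glutamate and potassium, contact blood vessels and supply lipids to neurons. The 6 genes have unrelated products. Rnase1 encodes a secreted ribonuclease that degrades RNA outside cells. Agxt2l1, now named Etnppl, encodes an enzyme that breaks down phosphoethanolamine, a building block of membrane phospholipid, and is known in brain as an astrocyte gene. Prelp encodes a small leucine-rich repeat proteoglycan of the extracellular matrix. Cmya5 encodes myospryn, a large muscle protein that binds alpha-actinin and dysbindin. Bcar3 encodes an adaptor that binds the Cas docking protein in adhesion signalling. 1700019G17Rik, named Nat8f4 in RefSeq, belongs to the Nat8 family of N-acetyltransferases.

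The stretches before the start sites of the 3 genes with the largest 4-week differences among the 6 are shown, since their transcripts stood high in the same group of libraries. Each holds the 250 bases upstream of a RefSeq start in GRCm38.p6, which is not the build of the counts, 5′ to 3′ along the gene. They cover chr14:51146768-51147017 on the minus strand for Rnase1, chr3:130617198-130617447 on the plus strand for Agxt2l1 (the first of 2 starts) and chr1:133921402-133921651 on the minus strand for Prelp. Capitals mark matches to the motifs searched.
Rnase1: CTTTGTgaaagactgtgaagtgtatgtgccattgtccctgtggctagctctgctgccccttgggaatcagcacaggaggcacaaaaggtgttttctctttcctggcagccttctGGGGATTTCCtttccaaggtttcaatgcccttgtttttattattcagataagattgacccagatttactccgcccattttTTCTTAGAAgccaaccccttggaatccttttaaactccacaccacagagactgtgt
Agxt2l1: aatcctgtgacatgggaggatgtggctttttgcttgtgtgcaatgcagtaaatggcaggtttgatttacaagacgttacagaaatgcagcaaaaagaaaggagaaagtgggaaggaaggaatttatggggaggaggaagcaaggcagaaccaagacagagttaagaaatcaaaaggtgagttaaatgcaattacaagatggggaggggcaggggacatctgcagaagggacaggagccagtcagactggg
Prelp: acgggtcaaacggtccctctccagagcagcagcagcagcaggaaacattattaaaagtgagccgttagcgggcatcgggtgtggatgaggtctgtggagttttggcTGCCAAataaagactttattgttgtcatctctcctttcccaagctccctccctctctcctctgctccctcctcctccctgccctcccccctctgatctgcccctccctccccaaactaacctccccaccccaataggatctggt
The motifs, searched on both strands, were TATAAA, the AP-1 site TGANTCA, the STAT site TTCNNNGAA, the palindromic nuclear factor I site, its half-site TTGGCA, which can overlap it, the SOX site ACAAAG and the NF-kB site. The Rnase1 stretch held TTCTTAGAA, a STAT match that begins 56 bases before the start, a pattern found in 7.02% of 32851 RefSeq stretches of this length. It also held GGGGATTTCC, an NF-kB match 136 bases before the start (pattern in 45.8% of all stretches), and a SOX match at its far end (16.5% of all). The Prelp stretch held 1 half-site of nuclear factor I, found in 12.3% of all stretches, and the Agxt2l1 stretch shown held none of the motifs. Among the other stretches of the 6 genes, half-sites were present for Cmya5 and for the second starts of Agxt2l1 and 1700019G17Rik, and SOX matches for Cmya5, both Bcar3 starts and the second 1700019G17Rik start. TATAAA (12.4% of all) was present for the first Bcar3 start and the second 1700019G17Rik start, and an NF-kB match for the second Agxt2l1 start. No stretch of the 6 genes held TGANTCA (6.75% of all) or the full nuclear factor I site (0.0365% of all).

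Total counts per library were 13492007 to 24583430. Counts of Tsc1 itself were 80.9 to 102 counts per 1000000 (CPM) in 4-week Tsc1CKO and 85.1 to 101 CPM in 4-week controls, and 79.7 to 128 CPM against 110 to 125 CPM at 15 weeks. Whole-gene counts cannot check a deletion of some exons in some cells, and so do not check the genotype labels. Cortical markers were present in every library, with 10 excitatory neuron markers summing to 5110 to 11300 CPM, and choroid plexus markers were low, at 7.19 to 25.6 CPM for 8 genes. Principal component 1 of each age set 1 Tsc1CKO library apart from its group. At 4 weeks, replicate 2 scored 6.88, whereas the remaining Tsc1CKO scores were -26.1 to -10.3 and control scores 4.6 to 31.5. At 15 weeks, replicate 4 scored 22.8, the remaining Tsc1CKO libraries -65 to -32.8 and controls 35.9 to 43.5. Among 4-week controls, replicate 4 was the farthest from Tsc1CKO, at 31.5 against 4.6 to 16.3 in the other 4. Values are therefore given by library.

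**Figure D1:**
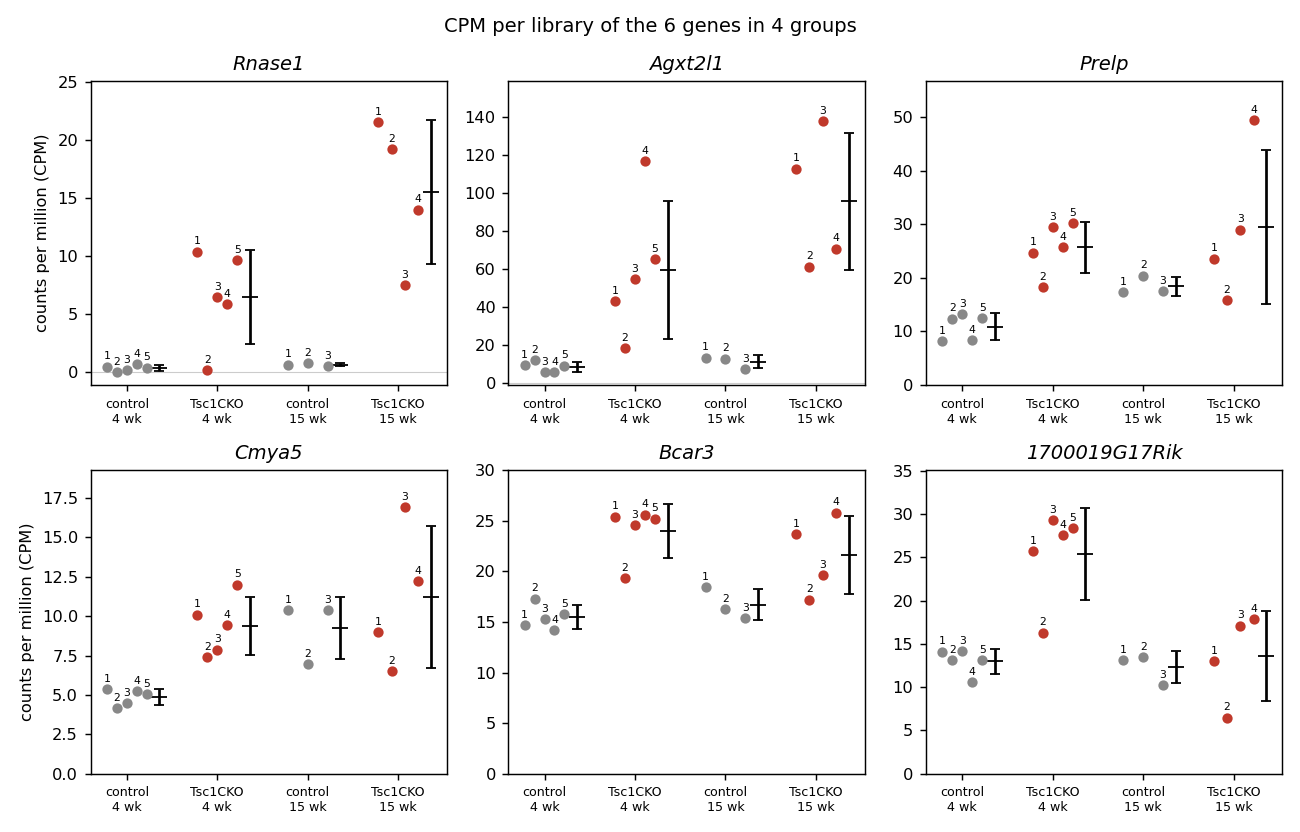
CPM (vertical axes, each with its own scale) of the 6 genes in each library, by group. Points are libraries numbered by replicate, and black bars are the group mean with 1 SD (n = 5, 5, 3 and 4 from left to right). Rnase1 and Agxt2l1 were separated by genotype at 15 weeks, whereas the points of the other 4 genes overlapped at that age.

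Rnase1 showed the largest 4-week fold change of 14754 genes tested. It lies on mm9 chromosome 14, 51764677 to 51766442, minus strand, and is protein coding. In 4-week Tsc1CKO replicates 1 to 5 it was counted at 10.4, 0.193, 6.47, 5.86 and 9.64 CPM, and in control replicates 1 to 5 at 0.499, 0, 0.193, 0.697 and 0.407 CPM. Thus 4 Tsc1CKO libraries lay far above every control, and replicate 2 lay within the control range, so the groups overlapped. The value of replicate 2 rests on 3 counts, with an exact Clopper-Pearson 95% interval of 0.0397 to 0.563 CPM, and 0 counts in control replicate 2 allow up to 0.17 CPM, taken as 3 counts of that library's total. Such bounds cover counting error only. Group means were 6.5 ± 4.03 CPM (SD, n = 5) and 0.359 ± 0.271 CPM (SD, n = 5), and the fitted log2 fold change was 4.15 ± 0.87 (SE), or 4.45 ± 0.40 without Tsc1CKO replicate 2.

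At 15 weeks Rnase1 rose in Tsc1CKO. Replicates 1 to 4 were at 21.5, 19.2, 7.53 and 14 CPM and control replicates 1 to 3 at 0.676, 0.778 and 0.542 CPM. Every Tsc1CKO library was above every control, and the lowest of them, replicate 3, still held 138 counts against at most 15. The log2 fold change was 4.53 ± 0.42 (SE, edgeR quasi-likelihood adjusted p = 0.00358), 2 SE below and above it were 3.69 and 5.36, and the direction held in 4 of 4 Tsc1CKO libraries. A two-sided exact permutation test of log2 CPM gave p = 0.0286, the smallest that 4 against 3 libraries allow. This 15-week result was known when the genes were chosen. Replicate 4, whose expression profile lay near control, was no exception for this gene, and without it the log2 fold change was 4.56.

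Agxt2l1 ranked 3 by fold change at 4 weeks. The gene lies on mm9 chromosome 3, 130320366 to 130338668, plus strand. Its level in 4-week Tsc1CKO replicates 1 to 5 was 43.1, 18.6, 54.8, 117 and 65.2 CPM, and in controls 9.63, 12.2, 5.78, 5.63 and 9.19 CPM. All 5 Tsc1CKO libraries exceeded all 5 controls, with replicate 2 closest to them and replicate 4 far above. Means were 59.7 ± 36.4 CPM and 8.49 ± 2.79 CPM (SD, n = 5 each), and the log2 fold change was 2.80 ± 0.49 (SE), falling to 2.40 without Tsc1CKO replicate 4 and reaching 3.02 without replicate 2.

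At 15 weeks Agxt2l1 rose in Tsc1CKO as well, to 113, 61.4, 138 and 70.8 CPM in replicates 1 to 4, against 13.5, 12.9 and 7.27 CPM in control replicates 1 to 3. The groups were well apart, with the lowest Tsc1CKO library, replicate 2, more than 4 times above the highest control. The log2 fold change was 3.09 ± 0.34 (SE, edgeR adjusted p = 0.00467), with 2 SE reaching from 2.40 to 3.78 and 4 of 4 Tsc1CKO libraries higher. The exact permutation p was 0.0286, again the smallest possible. Tsc1CKO replicates 2 and 4 were low relative to 1 and 3 for this gene, whereas for Rnase1 replicate 3 was the lowest, so the 2 transcripts did not rank the libraries alike.

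Prelp (mm9 chromosome 1, 135806881 to 135817991, minus strand) was counted at 24.7, 18.2, 29.5, 25.7 and 30.2 CPM in 4-week Tsc1CKO and at 8.2, 12.4, 13.3, 8.31 and 12.5 CPM in controls. The 4-week groups did not overlap, and replicate 2 was again the lowest Tsc1CKO library. Its fitted log2 fold change was 1.21 ± 0.16 (SE). At 15 weeks the Tsc1CKO libraries spread widely, at 23.6, 15.8, 29 and 49.5 CPM, against 17.4, 20.4 and 17.5 CPM in controls. Replicate 2 lay below all 3 controls and replicate 4 at 2.69 times the control mean. The log2 fold change of 0.68 ± 0.34 (SE) did not pass (edgeR adjusted p = 0.242, exact permutation p = 0.257), with an interval from 0.00 to 1.36, and it was 0.30 without Tsc1CKO replicate 4. The antisense gene Gm15851 shares 350 exonic bases with Prelp, and since the counting is not stated to use strand, reads of the 2 may not be told apart there.

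Cmya5 (mm9 chromosome 13, 93810668 to 93914679, minus strand) was at 10.1, 7.39, 7.87, 9.41 and 12 CPM in 4-week Tsc1CKO and at 5.35, 4.15, 4.49, 5.23 and 5.04 CPM in controls. The lowest Tsc1CKO value was above the highest control value, in a group of controls that differed little (SD 0.513 CPM). The fit gave a log2 fold change of 0.94 ± 0.15 (SE). By 15 weeks the control libraries stood at 10.4, 6.95 and 10.4 CPM, all above every 4-week control, and the Tsc1CKO libraries at 8.97, 6.53, 16.9 and 12.2 CPM lay on both sides of them. The 15-week log2 fold change was 0.27 ± 0.31 (SE, edgeR adjusted p = 0.599, exact permutation p = 0.571), with an interval from -0.35 to 0.90, and 0.01 without Tsc1CKO replicate 3.

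Bcar3 (mm9 chromosome 3, 122122698 to 122233098, plus strand) had the smallest 4-week fold change of the 6 and the smallest coefficients of variation within the 4-week groups (11.2% in Tsc1CKO and 7.81% in controls). Tsc1CKO replicates 1 to 5 were at 25.4, 19.3, 24.6, 25.6 and 25.2 CPM, and controls at 14.7, 17.3, 15.3, 14.2 and 15.8 CPM. Apart from replicate 2, the Tsc1CKO libraries lay between 24.6 and 25.6 CPM, and none overlapped the controls. In the fit this was a log2 fold change of 0.62 ± 0.10 (SE). At 15 weeks Tsc1CKO libraries were at 23.7, 17.2, 19.6 and 25.8 CPM and controls at 18.4, 16.3 and 15.4 CPM, so that only replicate 2 fell inside the control range. The log2 fold change of 0.37 ± 0.16 (SE, edgeR adjusted p = 0.199, exact permutation p = 0.114) did not pass, with an interval from 0.04 to 0.70. With limma voom and quality weights it passed (0.42 ± 0.12, adjusted p = 0.0208).

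1700019G17Rik (mm9 chromosome 6, 85849045 to 85854878, minus strand) was at 25.7, 16.3, 29.3, 27.6 and 28.4 CPM in 4-week Tsc1CKO and at 14.1, 13.1, 14.2, 10.6 and 13.1 CPM in controls. Replicate 2 was close to the highest control, and the other 4 Tsc1CKO libraries were well above it. On the log2 scale the fold change was 0.96 ± 0.14 (SE). At 15 weeks the Tsc1CKO libraries, at 13, 6.47, 17.1 and 17.9 CPM, surrounded the controls at 13.1, 13.5 and 10.2 CPM. The log2 fold change was 0.15 ± 0.31 (SE, edgeR adjusted p = 0.785, exact permutation p = 0.971), with an interval from -0.48 to 0.78, and it turned to -0.020 without Tsc1CKO replicate 4. Of the distinct 100-base windows of its coding transcripts, 6.74% occur exactly in those of Cml2, and 18.1% of its 50-base windows occur in Cml1, Cml2, Nat8 or Nat8b. Its counts are uncertain, by an amount that these shares do not bound. The other 5 genes shared no such window with another coding gene.

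**Figure D2:**
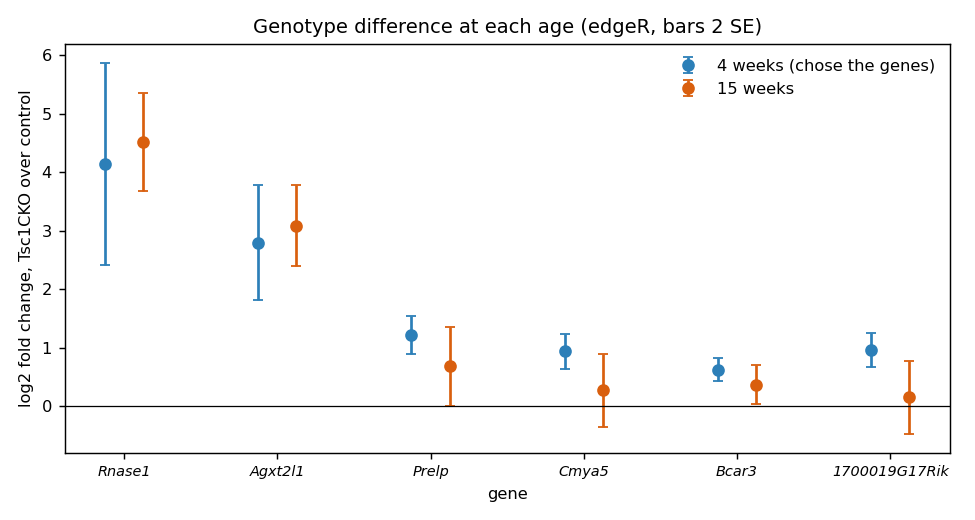
Fitted log2 fold change of Tsc1CKO over control (vertical axis) for each gene at 4 weeks (blue, the values that chose the genes) and 15 weeks (orange), with bars of 2 SE. Rnase1 and Agxt2l1 stood at 4.53 and 3.09 at 15 weeks, and the other 4 genes between 0.15 and 0.68.

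At 15 weeks the fitted log2 fold change was above 0 for all 6 genes, as it was for 52.3% of all genes tested. At 4 weeks all 6 were above 0 too (51% of all genes), but the choice of raised genes fixed this in advance. Of the 6 genes 2 were called higher and 0 lower at 15 weeks, where edgeR called 3.36% of 15015 genes higher and 0.42% lower. The called genes were Rnase1, whose 15-week result was known when the genes were chosen, and Agxt2l1. DESeq2 also called 2 of the 6, where it called 8.42% of 16503 genes higher and 4.41% lower. Rnase1 and Agxt2l1 also had groups that did not overlap, as did 12% of all genes tested in this direction. At 4 weeks, where the genes were chosen, edgeR called 0.0407% of 14754 genes higher, and 2.02% of genes had every Tsc1CKO library above every control. Of the 6, all but Rnase1 had such groups. With Tsc1CKO replicate 2 left out, the 4-week log2 fold changes were 4.45 (Rnase1), 3.02 (Agxt2l1), 1.31 (Prelp), 1.01 (Cmya5), 0.69 (Bcar3) and 1.08 (1700019G17Rik). With control replicate 4 left out they were 4.50, 2.67, 1.12, 0.96, 0.59 and 0.89 in the same order. Among all genes the 6 stood at ranks 1 (Rnase1), 3 (Agxt2l1), 29 (Prelp), 65 (1700019G17Rik), 73 (Cmya5) and 258 (Bcar3) by 4-week fold change. At 15 weeks the ranks were 55, 125, 1755, 5588, 4034 and 3173 in that order. In the authors' deposited table for 4 weeks, of 594 genes, their log2 fold changes were 4.16 ± 0.97 for Rnase1, 2.80 ± 0.46 for Agxt2l1, 1.21 ± 0.17 for Prelp, 0.95 ± 0.15 for 1700019G17Rik, 0.93 ± 0.16 for Cmya5 and 0.62 ± 0.11 for Bcar3 (± the authors' SE). Whether the genotype difference itself changed between ages was not tested, because the 4-week values fixed the choice.

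Levels also differed between ages within a genotype. In controls, mean CPM was 1.9 times higher at 15 than at 4 weeks for Cmya5, 1.85 times for Rnase1, 1.68 times for Prelp, 1.32 times for Agxt2l1, 1.08 times for Bcar3 and 0.944 times for 1700019G17Rik. For Cmya5 and Prelp every 15-week control exceeded every 4-week control. In Tsc1CKO the same ratio was 2.39 for Rnase1, 1.6 for Agxt2l1, 1.19 for Cmya5, 1.15 for Prelp, 0.899 for Bcar3 and 0.535 for 1700019G17Rik. For 1700019G17Rik, 2 of the 4 Tsc1CKO libraries at 15 weeks lay below every 4-week Tsc1CKO library by more than 3 CPM. These ratios are descriptions, since the 4-week libraries chose the genes.

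Levels of different genes were compared as CPM per kilobase of exon. In 4-week controls the order was Bcar3 (4.69 ± 0.362), 1700019G17Rik (4.04 ± 0.45), Prelp (3.03 ± 0.685), Agxt2l1 (2.28 ± 0.748), Cmya5 (0.409 ± 0.0432) and Rnase1 (0.37 ± 0.279, SD, n = 5 each). Each neighbour in this order differed from the next by less than their 2 SDs together, apart from the step from Agxt2l1 to Cmya5. In 15-week Tsc1CKO the order had changed, with Agxt2l1 first (25.7 ± 9.66) and Rnase1 second (16 ± 6.4), followed by Prelp (8.15 ± 3.99), Bcar3 (6.54 ± 1.18), 1700019G17Rik (4.23 ± 1.62) and Cmya5 (0.941 ± 0.378, SD, n = 4 each). Only the step from 1700019G17Rik to Cmya5 was larger than both SDs together. Agxt2l1 and Rnase1, which stood below Bcar3, 1700019G17Rik and Prelp in young controls, thus had the highest means per length in older Tsc1CKO cortex.

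**Figure D3:**
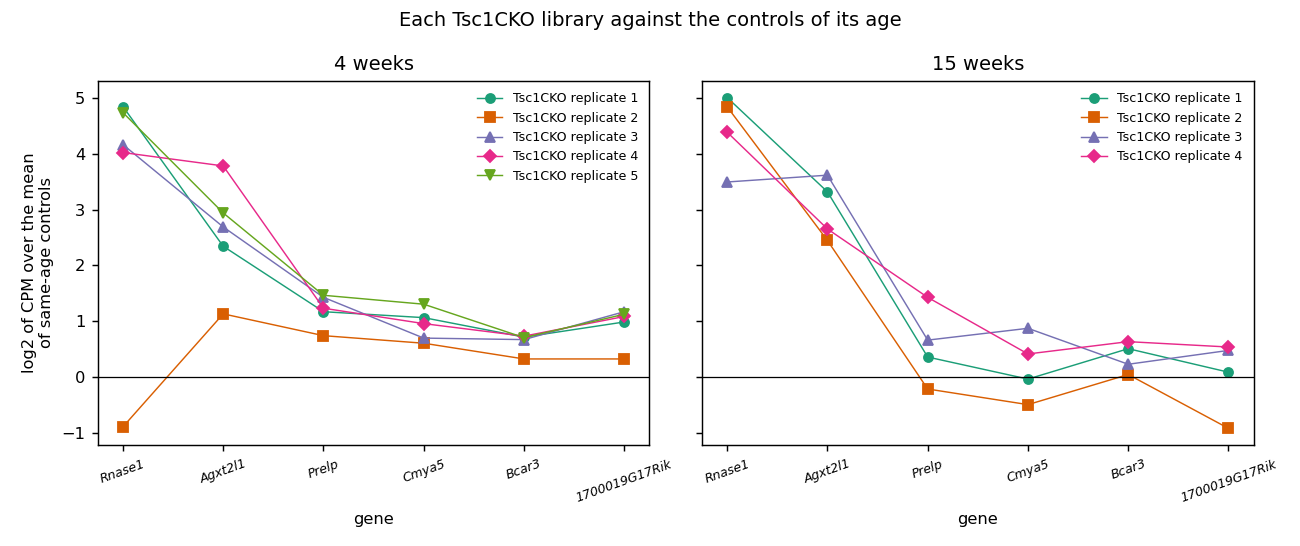
Each Tsc1CKO library against the mean of the controls of its age, as log2 of the CPM ratio (vertical axis), for the 6 genes (horizontal axis) at 4 weeks (left) and 15 weeks (right). Replicate 2 at 4 weeks runs below the other libraries at every gene, and replicate 2 at 15 weeks is lowest at 5 of the 6.

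The order of the libraries was shared by the 6 genes only in part. At 4 weeks Tsc1CKO replicate 2 was the lowest Tsc1CKO library for all 6 genes, at 0.537 times the control mean for Rnase1, 2.19 times for Agxt2l1, 1.67 times for Prelp, 1.52 times for Cmya5 and 1.25 times for both Bcar3 and 1700019G17Rik. No single library was highest throughout. At 15 weeks Tsc1CKO replicate 2 was lowest for 5 genes, all but Rnase1, for which it was second highest at 28.8 times the control mean. That library lay farthest from controls on the first principal component. Replicate 4, the one nearest to controls there, was the highest Tsc1CKO library for Prelp, Bcar3 and 1700019G17Rik. The ribosomal RNA gene Rn45s made up 10.7% of counts in 15-week Tsc1CKO replicate 2 and 4.58% to 7.27% in the other 15-week libraries. As CPM are over all counts, a larger share lowers the CPM of other genes. Its part in these ranks was not tested.

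Markers of other cells and tissues moved with some of these values. At 4 weeks the 20 astrocyte markers summed to 14900 to 20600 CPM in Tsc1CKO and 9680 to 15900 CPM in controls, with replicate 2 the lowest Tsc1CKO library, and none was at 0 in any library. The lowest control was replicate 4, and the other 4 controls held 14700 to 15900 CPM. Of these 20 markers 0 were called by edgeR at 4 weeks (13 higher at an unadjusted p under 0.05, 3 by DESeq2; of all genes these shares were 9.81% and 2.81% higher, and 8.95% and 1.68% lower), and their median log2 fold change was 0.37, against 0.00 over all genes. The 13 endothelial markers summed to 510 to 555 CPM against 282 to 498 CPM, lowest in control replicate 4, so that every Tsc1CKO library was above every control, again with replicate 2 lowest in Tsc1CKO. They had a median of 0.45, 0 called by edgeR, 9 at an unadjusted p under 0.05 and 5 by DESeq2. The 8 oligodendrocyte precursor markers summed to 305 to 454 CPM against 228 to 319 CPM, with a median of 0.41, 0 called by edgeR, 7 at an unadjusted p under 0.05 and 2 by DESeq2. Microglial markers, 12 genes, overlapped at 4 weeks, at 562 to 736 CPM against 396 to 640 CPM.

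At 15 weeks astrocyte markers summed to 16100 to 17900 CPM against 9790 to 10500 CPM and 10 of 20 were called higher by edgeR (median 0.66). Of all genes at this age, edgeR called 3.36% higher and 0.42% lower, and DESeq2 8.42% and 4.41%. Endothelial markers overlapped, at 339 to 474 CPM against 354 to 375 CPM. Reactive astrocyte markers reached 1290 to 5840 CPM for 13 genes against 223 to 248 CPM, among them Gfap at 3040 ± 1630 CPM (SD, n = 4) against 114 ± 15.7 CPM (SD, n = 3), and were lowest in Tsc1CKO replicate 4. The microglial markers summed to 691 to 1430 CPM against 440 to 535 CPM, again lowest in Tsc1CKO replicate 4, with a median of 1.01, 4 of 12 called higher by edgeR and 11 by DESeq2. Their part in the results for the 6 genes was not tested. In bulk RNA, more cells of a type and more RNA per cell cannot be told apart.

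Pituitary RNA was present in some libraries. The 9 pituitary markers, led by Gh, summed to 4.09 to 509 CPM in 4-week Tsc1CKO, highest in replicate 2, and to 2.03 to 125 CPM in controls. At 15 weeks they reached 76.5 CPM in Tsc1CKO replicate 2 and 5.51 CPM at most elsewhere. With Gh as a covariate the 15-week log2 fold change was 4.11 for Rnase1 (edgeR adjusted p = 0.00436) and 3.20 for Agxt2l1 (adjusted p = 0.0208). Of the others, Prelp moved to 1.06 (adjusted p = 0.115), Cmya5 to 0.57 (0.307), 1700019G17Rik to 0.46 (0.386) and Bcar3 to 0.45 (0.23), none of which passed. Muscle markers, given because Cmya5 is a muscle gene, overlapped between genotypes, at 29.8 to 41.2 CPM in Tsc1CKO and 33.6 to 52.5 CPM in controls at 4 weeks, and 26.7 to 37.3 CPM and 27.8 to 38.4 CPM at 15 weeks, for 14 genes.

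Genes whose profile was most like each member were found by the root mean square difference of log2 CPM, centred on the 4-week controls, over 17 libraries and 15491 other genes. Nearest to Rnase1 was Thbs4, which encodes a matrix thrombospondin (1.1 log2 units), followed by the protease gene Prss56 (1.33). Thbs4 was at 8.64 ± 5.34 CPM in 4-week Tsc1CKO (SD, n = 5) against 0.76 ± 0.352 CPM, and at 53.5 ± 28.3 CPM (SD, n = 4) against 4.38 ± 2.95 CPM at 15 weeks. Among the 6 genes themselves, the closest to Rnase1 was Agxt2l1 (1.49), whereas the closest to Agxt2l1 was Prelp (1.42). Close to Agxt2l1 was Icosl, which encodes a costimulatory ligand (0.886). Icosl was at 8.97 ± 3.73 CPM against 3 ± 0.286 CPM at 4 weeks (SD, n = 5 each) and at 17.9 ± 4.28 CPM (SD, n = 4) against 3.66 ± 1.07 CPM (SD, n = 3) at 15 weeks.

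The 4 remaining genes had closer neighbours, as their own changes were smaller. Prelp was nearest to Fbln1, which encodes the matrix protein fibulin (0.387), and Fam117a (0.395), and Cmya5 to the endothelial gene Vwf (0.352) and the choline dehydrogenase gene Chdh (0.357). Bcar3 was nearest to the dehydrogenase gene Hsd17b11 and the glycogen phosphorylase gene Pygb (0.138 each). 1700019G17Rik was nearest to Lrp4, an agrin receptor gene (0.256), and Nid2, which encodes a nidogen of basement membranes (0.272). Lrp4 was at 86.6 ± 14.3 CPM in 4-week Tsc1CKO and 56.8 ± 11 CPM in controls (SD, n = 5 each), and at 58.7 ± 17.5 CPM (SD, n = 4) and 52.5 ± 4.24 CPM (SD, n = 3) at 15 weeks. Likeness of this kind is a description over libraries that share group and age. Distances between the members themselves ran from 0.396 (Bcar3 and 1700019G17Rik) and 0.425 (Prelp and Cmya5) to 3.13 (Rnase1 and 1700019G17Rik).

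The families and partners of the 6 genes were examined as lists, of which edgeR called 0 members at 4 weeks. The counts at an unadjusted p under 0.05 below stand beside 15.7% of all genes higher and 9.59% lower at 15 weeks, and 9.81% and 8.95% at 4 weeks. Among ribonuclease genes and their inhibitor, 4 of 23 listed were tested at 15 weeks and 0 were called (3 higher at an unadjusted p under 0.05, and 3 by DESeq2), with a median log2 fold change of 0.85 against 0.02 over all genes. The ribonuclease inhibitor Rnh1 was at 0.89 ± 0.25 (edgeR adjusted p = 0.0759), the secreted ribonuclease Rnase4 at 0.80 ± 0.24 (adjusted p = 0.0896) and Rnaset2b at 2.81 ± 0.89 (adjusted p = 0.0994). Mean Rnaset2b was 1.19 CPM in 15-week Tsc1CKO and 0.169 CPM in controls, so its fold change rests on very few control counts. Rnaset2b also has a near-identical copy, Rnaset2a, and is uncertain. At 4 weeks 3 were tested, with 0 called by edgeR, 0 at an unadjusted p under 0.05 and 0 by DESeq2, and a median of 0.08.

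Of 25 tested genes of phosphoethanolamine and phosphocholine metabolism, the pathway of Agxt2l1, edgeR called 2 higher and 0 lower at 15 weeks. Among all genes it called 3.36% higher and 0.42% lower. The 2 called genes were Sgpl1, whose product releases phosphoethanolamine from sphingosine phosphate (0.99 ± 0.14, edgeR adjusted p = 0.0129), and Chpt1, a cholinephosphotransferase gene (0.87 ± 0.16, adjusted p = 0.0286). The ethanolamine kinase gene Etnk2 was at -0.78 ± 0.25 (adjusted p = 0.105). The list median was 0.10, and 7 higher and 1 lower had an unadjusted p under 0.05. DESeq2 called 2 higher and 1 lower, where it called 8.42% of all genes higher and 4.41% lower. At 4 weeks 0 of 25 were called by edgeR, 5 higher and 1 lower had an unadjusted p under 0.05, DESeq2 called 1 higher and 1 lower, and the median was 0.05.

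Of 13 tested leucine-rich repeat proteoglycans related to Prelp, 0 were called at 15 weeks (3 higher and 1 lower at an unadjusted p under 0.05, 0 by DESeq2), with a median of 0.26. Biglycan (Bgn) was at 0.53 ± 0.18 (edgeR adjusted p = 0.118), decorin (Dcn) at 0.58 ± 0.22 (adjusted p = 0.144) and Epyc at -1.41 ± 0.51 (adjusted p = 0.134). At 4 weeks 12 were tested with a median of 0.25, 0 called by edgeR, 2 higher at an unadjusted p under 0.05 and 0 by DESeq2. Meningeal fibroblast markers, several of which are such proteoglycans, summed to 293 to 313 CPM in 4-week Tsc1CKO and 143 to 344 CPM in controls, within which the Tsc1CKO range fell.

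Of 30 tested partners of Cmya5 at the costamere and in the dysbindin complex, 0 were called at 15 weeks (4 higher and 4 lower at an unadjusted p under 0.05, 5 higher and 4 lower by DESeq2), with a median of 0.01. The calcineurin gene Ppp3ca was at -0.54 ± 0.14 (edgeR adjusted p = 0.059), the calpain gene Capn3 at 0.98 ± 0.25 (adjusted p = 0.0628) and Xirp1, an actin-binding muscle protein, at 4.66 ± 1.23 (adjusted p = 0.0665). Mean Xirp1 was 3.81 CPM in 15-week Tsc1CKO and 0.144 CPM in controls, so its fold change rests on very few control counts. At 4 weeks the median over 27 was -0.04, with 0 called by edgeR, 2 higher and 7 lower at an unadjusted p under 0.05, and 2 higher by DESeq2.

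Of 34 genes of Cas adaptor signalling around Bcar3, 1 was called higher and 0 lower at 15 weeks, the actin regulator Vasp (0.66 ± 0.15, edgeR adjusted p = 0.0476), which is about the share among all genes. The kinase gene Yes1 was at 0.52 ± 0.13 (adjusted p = 0.0549) and the Cas family gene Nedd9 at 0.87 ± 0.25 (adjusted p = 0.0788). At 15 weeks 6 higher and 3 lower had an unadjusted p under 0.05, and DESeq2 called 3 higher and 3 lower. The median was -0.03 at 15 weeks and 0.05 at 4 weeks, when edgeR called 0, 7 higher and 1 lower had an unadjusted p under 0.05, and DESeq2 called 3 higher. Of 8 tested N-acetyltransferases related to 1700019G17Rik, 0 were called at either age, with medians of 0.27 at 4 weeks and -0.11 at 15 weeks. At 4 weeks 3 were higher at an unadjusted p under 0.05 and 1 by DESeq2. Cml1, which shares sequence with 1700019G17Rik, was at 0.65 ± 0.15 (adjusted p = 0.0514) at 15 weeks, where 1 higher and 1 lower had an unadjusted p under 0.05 and DESeq2 called 1 higher. Nat8l, which makes N-acetylaspartate in neurons, was at -0.43 ± 0.16 (adjusted p = 0.139) and Nat1 at 0.87 ± 0.50 (adjusted p = 0.299).

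**Figure D4:**
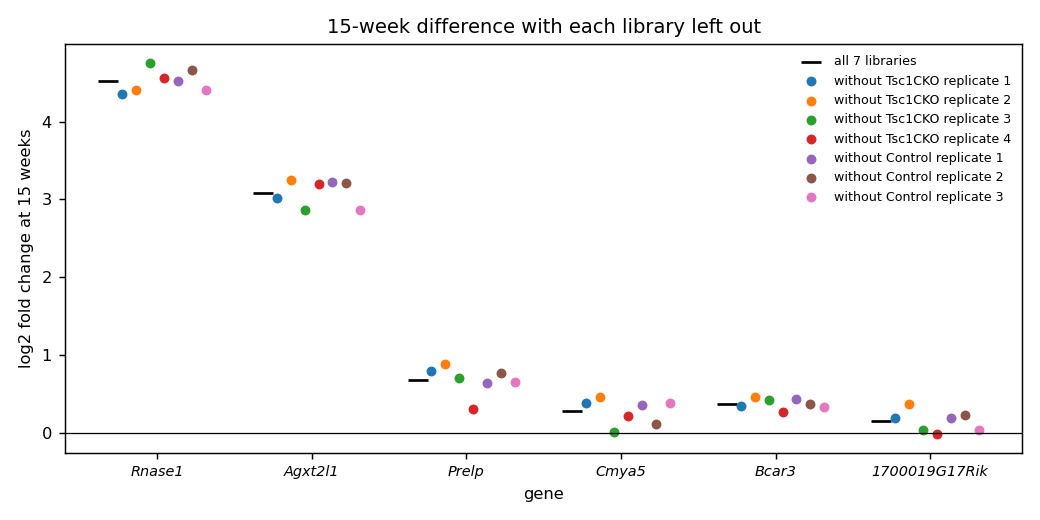
Log2 fold change of each gene at 15 weeks (vertical axis) with all 7 libraries (black dashes) and with each library left out in turn (coloured points). Rnase1 stays between 4.35 and 4.76 and Agxt2l1 between 2.86 and 3.25, while 1700019G17Rik runs from -0.020 to 0.37 about 0.

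Leaving out any 1 of the 7 libraries at 15 weeks left the number of called members at 2. Rnase1 then lay between 4.35 and 4.76 and Agxt2l1 between 2.86 and 3.25 on the log2 scale, a range narrower than 2 SE of either value. Prelp depended most on single libraries, at 0.30 without Tsc1CKO replicate 4 and 0.88 without replicate 2. Without replicate 4, Agxt2l1 was at 3.20, Cmya5 at 0.22 and Bcar3 at 0.26.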

How the data were processed

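Counts per gene came from 17 poly-A libraries of mouse cortex. Per the labels' protocols, RNA was extracted with Trizol and sequenced from an Illumina TruSeq preparation with 100-base reads. Per the submitters' design text, fastq files came from bcl2fastq 1.8.4 and Tophat 2.0.4 aligned them to mm9. How reads were counted, on which annotation and with what strand setting, is not given in the sources used here. The deposited counts are whole numbers with no normalization. Their header stands 1 place off the columns, so columns were taken by number and tested against the authors' normalized signal (counts divided by a size factor), to which all 17 columns stood in a constant ratio within 0.0001. The deposited log2 fold changes and SE are from the authors' DESeq2 fit.

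Groups follow the labels. The 6 genes, the gene lists and the tests were chosen with earlier results of these data known. Genotype was fitted within each age with edgeR 4.0.16 in R 4.3.3 (TMM, filterByExpr, robust quasi-likelihood test, Benjamini-Hochberg adjustment over all genes at 0.05, SE as the log2 fold change over the root of F). All 6 genes passed the filter at both ages. Printed CPM are per 1000000 of all counts. Permutation tests used log2 of CPM plus 0.1, and likeness a prior count of 2. Coordinates, exon lengths and shared windows are from GENCODE vM1 (mm9), and all 6 genes matched. Genes named were the 6, in each family list the 3 with the smallest 15-week p, and the 2 nearest profiles per gene (1 is not reported here), besides Tsc1, Gh and Gfap. Counts differed beyond sampling noise in all 136 pairs of libraries (chi-square per degree of freedom at least 6.81). Alternatives were DESeq2 1.42.0, limma 3.58.1 voom, RLE factors, other filters, a fit without robust estimation, 1 fit over both ages, a block for replicate number, Gh as a covariate, counts without the ribosomal RNA gene Rn45s and each library left out. The edgeR fit was tested on simulated data.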

Additional observations from a re-analysis of the deposited data

Results flagged for a closer look

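In 4-week Tsc1CKO, replicate 2 lay apart from the other 4 libraries for Bcar3, at 19.3 CPM with the next lowest at 24.6 CPM, and for 1700019G17Rik, at 16.3 CPM with the next lowest at 25.7 CPM. The gap was 0.833 of the group's range for Bcar3 and 0.725 for 1700019G17Rik, past the critical value of Dixon's ratio for 5 values. Since the 4-week values chose these genes, this is a description and not a test. In all, 18 sets of libraries were examined in this way (6 genes in 3 groups), and for genes not chosen on these values chance marks about 1 set in 20. For both genes the library still lay above every 4-week control, whose highest values were 17.3 CPM and 14.2 CPM.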

How the results depend on the processing

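The calls of Rnase1 and Agxt2l1 at 15 weeks held in all 17 alternatives, with log2 fold changes of 4.11 to 4.76 (adjusted p 3.78e-24 to 0.0452) and 2.86 to 3.25 (adjusted p 1.18e-19 to 0.0458). Prelp (0.26 to 1.06) and Cmya5 (0.01 to 0.57) passed in none of the 17, and Bcar3 (0.25 to 0.46) in 1, limma voom. 1700019G17Rik turned to -0.10 with the replicate block and ran from -0.020 (without Tsc1CKO replicate 4) to 0.37 (without Tsc1CKO replicate 2) with single libraries left out. No 15-week control had replicate number 4, so the block fit at that age drew no genotype difference from Tsc1CKO replicate 4. The number of members called was 2, or 3 with limma voom, and 2 to 2 with single libraries left out. The 4-week log2 fold changes of the 6 genes kept their direction in every alternative run, 20 for each gene and 19 for Rnase1, which the filter at 1 CPM removed. The choice of raised genes on these same libraries all but fixed that direction, so it carries no support. All 24 group means moved by less than 1 SD with TMM library sizes.

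Counts over all genes were less stable, and the cause was not tested. At 15 weeks 567 genes were called, 504 higher and 63 lower, against 2118 with DESeq2 (1390 and 728), 5173 with limma voom (2773 and 2400), 3501 in a fit of all libraries (1871 and 1630), 2842 with the replicate block (1651 and 1191), 289 with Gh as a covariate (276 and 13) and 39 (without control replicate 2) to 3460 (without Tsc1CKO replicate 4, 1997 higher and 1463 lower) with single libraries left out. At 4 weeks 6 were called, all higher, against 596 with DESeq2 (373 higher and 223 lower), 38 with no filter, 12 without robust estimation, 76 in a fit of all libraries, 12 with the replicate block, 0 with Gh as a covariate (edgeR) and 0 (without control replicate 2) to 594 (without Tsc1CKO replicate 2) with single libraries left out. The 6 genes called at 4 weeks in the main fit did not include Rnase1 or Agxt2l1, which ranked 149 and 78 by edgeR p. At an unadjusted p under 0.05 edgeR had 1448 genes higher and 1321 lower at 4 weeks. Whether replicate numbers pair the libraries cannot be settled with so few libraries per group. Deviations of same-numbered libraries from their group means correlated at -0.117 to 0.0564 at 4 weeks and -0.106 to 0.196 at 15 weeks. At 4 weeks no Tsc1CKO library correlated best with the control of its own number, and at 15 weeks only Tsc1CKO replicate 1 did. Depth limits Rnase1 in 4-week controls, at 0 to 12 counts a library.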
